A study of Mus musculus with 6 samples.

Results

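Elastic fibres were followed here through 10 genes, Eln, Fbn1, Fbn2, Mfap4, Mfap5, Fbln1, Fbln2, Fbln5, Efemp1 and Efemp2, chosen by symbol from the 23412 genes of the deposited table. All 10 were found, and all 10 reached the mean level of 1 FPKM from which genes were tested. FPKM scales the reads of a gene by its length and by library depth, so levels can be compared between genes. Total RNA came from the ventral dermis of 6 mice aged 3 weeks, on a mixed CD1 and C57BL/6 background, with 3 mice in each group. The 3 mutants were HoxB6CreERT/+; R26-YFP/+; CatnbΔex3/+, and the 3 littermate controls were HoxB6CreERT/+; R26-YFP/+, so both groups carried the Cre and the reporter. Both groups also received tamoxifen at embryonic day 16.5, through the mother. The recombinase is active only in cells that express the HoxB6 transgene, and the RNA was taken from whole dermis and not from sorted fibroblasts. The comparison asks how activated beta-catenin, the nuclear carrier of the Wnt signal, bears on dermis that the title of the study describes as fibrotic.

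An elastic fibre has a core of cross-linked elastin on a scaffold of microfibrils, whose main proteins are the fibrillins. Fibulins and microfibril-associated proteins help elastin monomers onto that scaffold, and lysyl oxidases then cross-link them. In skin these fibres give recoil, while collagen gives tensile strength, and most of their components are made by dermal fibroblasts.

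Libraries held 7799565 to 13478910 gene reads and were alike across tested genes (Pearson r from 0.946 to 0.984 over pairs of libraries, log2(FPKM + 1)). Ctnnb1, the engineered gene, ranged from 163 to 201 FPKM in controls and from 136 to 193 FPKM in mutants, and loss of 1 exon cannot be read from such values. The groups differed in library sex. Xist, expressed from a silenced X, reached 55.5 and 66.2 FPKM in controls 1 and 2, which had 2 and 3 reads in 4 Y-linked genes together, while control 3 and the 3 mutants had 2857 to 4261 such reads. Mutant 2 also had 6.47 FPKM of Xist. Control 2 had the lowest and mutant 1 the highest median-of-ratios factor, 0.878 and 1.19, with mutant 2 next to control 2 at 0.916.

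The upstream sequences of 3 fibulin family genes are shown. The fibulin genes stood higher in the mutants, as did all 10 elastic fibre genes. The windows can be searched for the word bound by TCF/LEF factors, the DNA-binding partners of beta-catenin. RefSeq windows on GRCm38.p6 were found for 6 of the 10 genes (Fbn1, Fbln1, Fbln2, Fbln5, Efemp1 and Efemp2). Fbn2 was not looked up, and Eln, Mfap4 and Mfap5 had no window. Of the windows found, the 3 shown are those that hold no GENCODE exon. Each has the 250 bases before the annotated start, in the direction of transcription, and capitals mark GC boxes (GGGCGG, either strand).
Fbln1, chr15:85205699-85205948, plus strand: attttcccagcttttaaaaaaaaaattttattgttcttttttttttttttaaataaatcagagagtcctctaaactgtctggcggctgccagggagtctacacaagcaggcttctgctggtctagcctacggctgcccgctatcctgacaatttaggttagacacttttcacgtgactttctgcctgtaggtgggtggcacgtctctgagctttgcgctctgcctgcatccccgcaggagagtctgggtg
Fbln5, chr12:101819120-101819369, minus strand: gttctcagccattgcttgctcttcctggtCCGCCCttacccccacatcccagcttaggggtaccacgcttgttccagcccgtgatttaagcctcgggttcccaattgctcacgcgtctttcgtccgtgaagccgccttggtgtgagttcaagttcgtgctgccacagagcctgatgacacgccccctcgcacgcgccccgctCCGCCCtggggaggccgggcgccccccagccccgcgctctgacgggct
Efemp2, chr19:5473696-5473945, plus strand: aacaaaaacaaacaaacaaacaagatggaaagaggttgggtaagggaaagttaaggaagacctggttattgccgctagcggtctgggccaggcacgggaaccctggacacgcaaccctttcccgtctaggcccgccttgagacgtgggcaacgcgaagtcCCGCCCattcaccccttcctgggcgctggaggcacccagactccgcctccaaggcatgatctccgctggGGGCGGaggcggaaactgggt
The Fbln5 window has 2 GC boxes, at 221 and 48 bases before the start, the Efemp2 window 2, at 90 and 21, and the Fbln1 window none. Over the first window of each of the 6 genes, 5 held a GC box, against 32.7% of 32851 windows of this length. A first search for the TCF/LEF word, on both strands, asked for A or T at both bases after CTTTG. It found the word in 0 of all 10 windows of these 6 genes and in 14.8% of all windows. The word was then shortened to CTTTGA. That form was in 2 of the 10, those of Fbln2 and the second of Fbln5, and in 13.8% of all windows. Neither of these 2 is followed by A or T. Of the 6 first windows, 1 held CTTTGA. Some of the 10 overlap, as Fbln1, Fbln5 and Efemp2 have more than 1 annotated start. The TATA box, TATAAA on either strand, was in none of the 10 and in 12.4% of all windows. The AP-1 word, TGANTCA, was in the Efemp1 window only, and in 6.75% of all. These counts describe the letters of short windows and not the binding of any factor.

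All 10 elastic fibre genes had higher mean levels in the activated beta-catenin dermis, by 1.56-fold for Efemp2 to 2.25-fold for Mfap4 as a ratio of mean FPKM. None of the 10 passed the threshold (0 called by limma with Benjamini-Hochberg adjustment over all genes, where 18 of 12560 genes or 0.143% were called higher, and 0 by limma-voom on recovered reads). At an unadjusted p under 0.05, 10 of 10 were higher, against 10.5% of all genes tested. In 8 of 10 every mutant lay above every control, against 13.0% of all genes, and the exceptions were Mfap5 and Efemp2. In none did every mutant lie below every control, against 2.65% of all genes. The median difference of the 10 was 0.88 on the log2(FPKM + 1) scale, which understates the change of low genes, and that of all tested genes was 0.09. In bulk RNA, more cells of a type and more RNA per cell cannot be told apart.

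**Figure D1:**
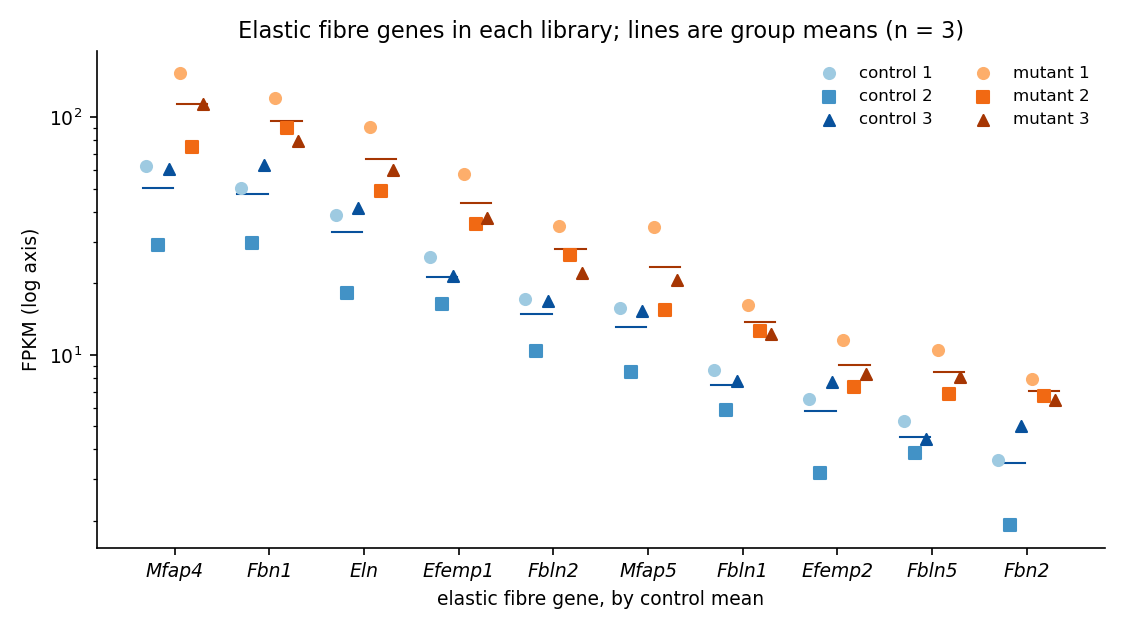
FPKM (log axis) of the 10 elastic fibre genes, ordered by control mean, with a point for each of the 6 libraries and a line for each group mean (n = 3). Control 2 is the lowest and mutant 1 the highest point of all 10 genes, and only for Mfap5 and Efemp2 does a control lie above a mutant.

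Elastin, the rubber-like core protein, is encoded by Eln (chromosome 5, 134702593 to 134747323, GRCm38). Controls 1 to 3 had 38.6, 18.3 and 41.6 FPKM of it, and mutants 1 to 3 had 91.3, 49.1 and 60.2 FPKM. The groups did not overlap, though mutant 2 was only 1.18-fold above control 3. Means were 32.8 ± 12.7 and 66.9 ± 21.9 FPKM (SD, n = 3 each), with a log2 difference of 1.04 (SE 0.33, 95% interval 0.30 to 1.78, limma adjusted p = 0.244). Without control 2 the log2 difference was 0.68.

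Fbn1 (chromosome 2, 125300594 to 125507993) encodes fibrillin-1, the main structural protein of microfibrils after birth. Controls 1 to 3 stood at 50.4, 29.6 and 62.8 FPKM, mutants 1 to 3 at 121, 90.4 and 79.3 FPKM. All mutants lay above all controls, the lowest mutant by 1.26-fold over control 3. The log2 difference was 1.05 (SE 0.29, limma adjusted p = 0.185). With 4653 to 23379 reads per library, Fbn1 was the most deeply read of the 10 genes.

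Fbn2 (chromosome 18, 58008623 to 58210487), for fibrillin-2, is best known from fetal microfibrils and had the lowest mean of the 10 genes in both groups. Controls 1 to 3 had 3.60, 1.92 and 5.01 FPKM and mutants 1 to 3 had 7.92, 6.72 and 6.44 FPKM. The 3 mutants were close together (SD 0.79 FPKM) and all above the controls, which varied more (SD 1.55 FPKM). The log2 difference was 0.89 (SE 0.23, limma adjusted p = 0.17). Without control 3 it was 1.13, and Fbn2 was then the only one of the 10 to pass (limma adjusted p = 0.0262), in a fit that called 189 genes or 1.5% higher over the whole table. That fit sets only female control libraries against mutants with Y-linked reads, so library sex and group cannot be told apart in it. With library sex fitted beside group, the difference of Fbn2 was 0.41.

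Mfap4 (chromosome 11, 61485431 to 61488900) encodes a fibrinogen-related protein of microfibrils that binds elastin. Its values were 62.1, 29.0 and 60.8 FPKM for controls and 153, 74.6 and 114 FPKM for mutants, in the order 1 to 3. Its log2 difference, 1.17 (SE 0.34, 95% interval 0.40 to 1.94, limma adjusted p = 0.217), had the highest value among the 10 with all 6 libraries. Mutants differed from each other by up to 2.05-fold and controls by up to 2.14-fold, close to the 2.25-fold between the group means.

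Mfap5 (chromosome 6, 122505845 to 122529290) encodes MAGP-2, a small fibrillin-binding glycoprotein. Controls 1 to 3 had 15.7, 8.50 and 15.3 FPKM, and mutants 1 to 3 had 34.4, 15.5 and 20.6 FPKM. Mutant 2 lay within the range of the controls. The log2 difference was 0.76 (SE 0.30, limma adjusted p = 0.367), with 0.50 without control 2 and 0.46 without mutant 1.

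The 5 fibulin genes encode glycoproteins that bridge elastin, fibrillins and basement membrane. Fbln1 (chromosome 15, 85205949 to 85286535), for fibulin-1, was at 8.64, 5.89 and 7.79 FPKM in controls and 16.2, 12.6 and 12.2 FPKM in mutants. The lowest mutant was 1.41-fold above the highest control, the widest such gap of the 10 genes. Its log2 difference of 0.80 (SE 0.17, limma adjusted p = 0.102) had the smallest p of the 10.

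Fbln2 (chromosome 6, 91212455 to 91272540), for fibulin-2, was at 17.2, 10.4 and 16.9 FPKM in controls and 35.0, 26.2 and 22.2 FPKM in mutants. The groups did not overlap, and the log2 difference was 0.87 (SE 0.23, limma adjusted p = 0.17). Fbln5 (chromosome 12, 101746565 to 101819055) encodes fibulin-5, which binds elastin and cell-surface integrins and is needed for elastic fibre assembly in mice. It was at 5.29, 3.88 and 4.41 FPKM in controls and 10.5, 6.88 and 8.04 FPKM in mutants, with no overlap. Its controls were the closest together of the 10 genes (SD 0.712 FPKM, 15.7% of the mean), and the log2 difference was 0.77 (SE 0.17, limma adjusted p = 0.106).

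Efemp1 (chromosome 11, 28853204 to 28926743), for fibulin-3, was the most abundant fibulin gene here, at 25.9, 16.4 and 21.5 FPKM in controls and 57.7, 35.7 and 37.8 FPKM in mutants. All mutants exceeded all controls, the lowest by 1.38-fold, and the log2 difference was 0.99 (SE 0.23, limma adjusted p = 0.123). Efemp2 (chromosome 19, 5473954 to 5482517) encodes fibulin-4, which brings lysyl oxidase to elastin. It was at 6.51, 3.18 and 7.70 FPKM in controls and 11.6, 7.30 and 8.32 FPKM in mutants, so mutant 2 lay below control 3. Efemp2 had the lowest log2 difference of the 10, 0.61 (SE 0.26, 95% interval 0.02 to 1.20, limma adjusted p = 0.425). Without control 2 it was 0.29. It also rests on the fewest reads in a library, 93 in control 2, next to 95 for Mfap5.

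The order of levels was nearly the same in every library. Mfap4 and Fbn1 came first, Mfap4 in 3 libraries and Fbn1 in the other 3, and their log2 difference in controls (0.07, SD 0.19, n = 3) was within its spread. Eln, Efemp1, Fbln2, Mfap5 and Fbln1 followed in that order in all 6 libraries. Efemp2, Fbln5 and Fbn2 filled the last places, and neighbours among them did not differ beyond their spread in controls (0.24, SD 0.46, and 0.35, SD 0.46). In mutants Efemp2 was above Fbln5 by 0.08 (SD 0.04) and Fbln5 above Fbn2 by 0.23 (SD 0.17), in 3 of 3 libraries each. Mfap4, Fbn1 and Eln together took 60.5% to 68.7% of the summed FPKM of the 10 genes. That sum was 234, 127 and 244 FPKM for controls 1 to 3, and 538, 325 and 369 FPKM for mutants 1 to 3. As a share of all gene reads the 10 genes took 0.167%, 0.109% and 0.181% in controls and 0.321%, 0.271% and 0.254% in mutants.

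The 10 genes shared their lowest and their highest library. In 10 of 10, control 2 was the lowest library and mutant 1 the highest. Against the control mean, their median was 0.22, -0.55 and 0.29 for controls 1 to 3 and 1.29, 0.68 and 0.75 for mutants 1 to 3 (log2). The median of all tested genes was likewise lowest in control 2 (-0.11) and highest in mutant 1 (0.25). Without control 2 and mutant 1 the median difference of the 10 was 0.53, from 0.12 for Efemp2 to 0.62 for Efemp1, with 0 called and limma adjusted p from 0.329 to 0.968. Mfap5 was then at 0.20 and Eln at 0.43. In 8 of 10 mutants 2 and 3 still lay above controls 1 and 3, against 14.9% of all genes.

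Once library sex was fitted beside group, so that mutants were set against control 3 alone, all 10 differences stayed above 0, with a median of 0.64 and a range from 0.19 for Efemp2 to 0.96 for Efemp1. Of the 10, 0 were called, with limma adjusted p from 0.505 to 1.0. Fbn2 moved from 0.89 to 0.41, Fbn1 from 1.05 to 0.59, Eln from 1.04 to 0.62 and Fbln5 from 0.77 to 0.79. All 3 mutants exceeded control 3 in 9 of 10, the exception being Efemp2, against 27.8% of all genes. Library sex and group overlap in this design, with no female mutant library, and cannot be fully told apart.

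**Figure D2:**
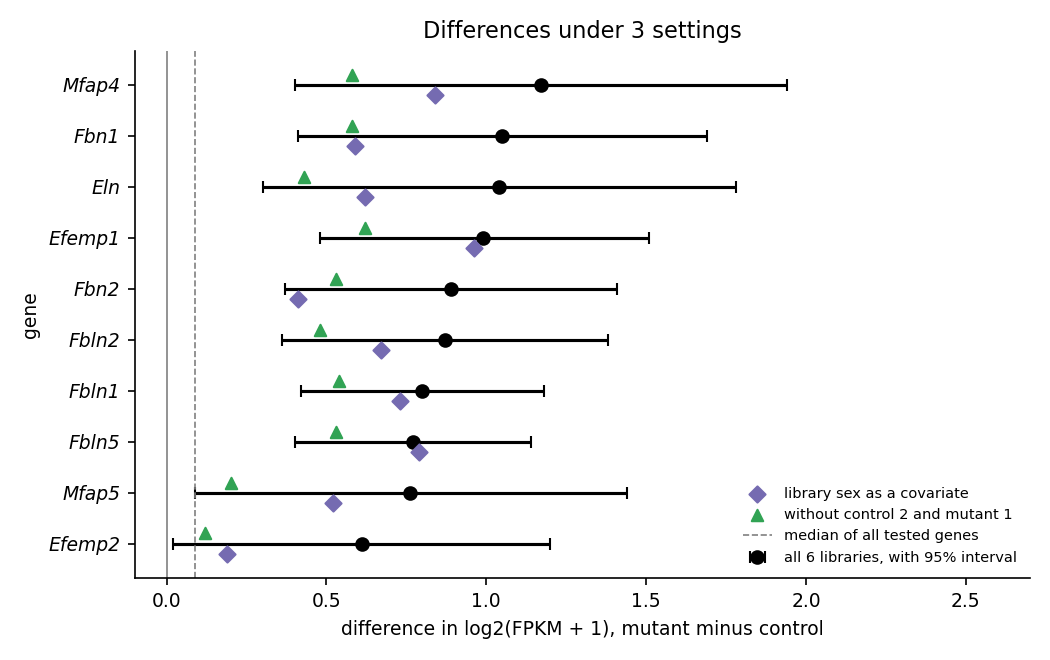
Differences in log2(FPKM + 1), mutant minus control, for each gene with all 6 libraries (black, 95% interval), with library sex as a covariate (purple) and without control 2 and mutant 1 (green). All values lie above 0; the green values run from 0.12 for Efemp2 to 0.62 for Efemp1, and the dashed line is the 0.09 of all tested genes.

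The median of the fibroblast markers moved with that of the elastic fibre genes library by library. So did the leukocyte median and, less closely, the adipocyte median, given below. The 10 markers (Pdgfra, Pdgfrb, Col1a1, Col1a2, Col3a1, Dpt, Lum, Dcn, Twist2 and Thy1) were all tested, and all 10 had a difference above 0, where 71.3% of all genes did, with a median of 0.97. Against the control mean their median was 0.15, -0.50 and 0.33 for controls 1 to 3 and 1.32, 0.85 and 0.84 for mutants 1 to 3. The median of the elastic fibre genes minus that of the markers was between -0.17 and 0.07 in every library. The summed level of the markers was 2740 to 10500 FPKM in controls and 9540 to 13700 FPKM in mutants. Taken relative to the median marker of the same library, Eln differed between groups by -0.02, Fbn1 by -0.01, Mfap4 by 0.11 and Efemp2 by -0.45 (log2). The other 6 lay between -0.30 and -0.07. The part of the fibroblast markers in the higher levels of elastic fibre genes was not tested.

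**Figure D3:**
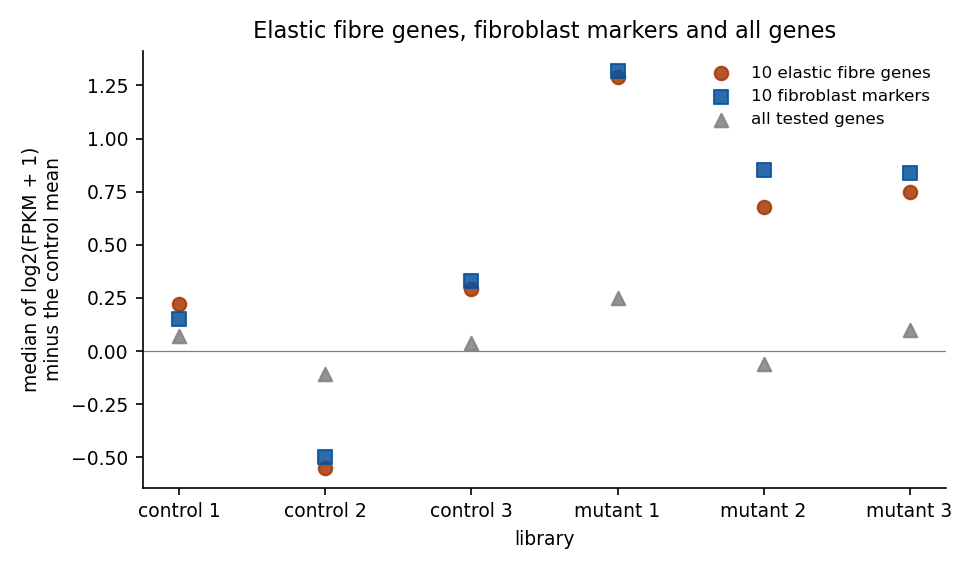
Median of log2(FPKM + 1) minus the control mean in each library, for the 10 elastic fibre genes, the 10 fibroblast markers and all 12560 tested genes. The first 2 sets run together from about -0.5 in control 2 to 1.29 and 1.32 in mutant 1, while all genes stay between -0.11 and 0.25.

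Smooth muscle and endothelium, which make elastic fibres in vessel walls, were followed by markers of their own. Of 6 smooth muscle markers, 5 were above 0, where 71.3% of all genes were, with a median of 0.33. In none did all mutants lie above all controls, against 13.0% of all genes, or below them, against 2.65%. The summed smooth muscle level ran from 87.3 to 148 FPKM in controls and from 132 to 185 FPKM in mutants. The 6 endothelial markers had a median of 0.21 and summed levels of 29.2 to 36.3 and 37.3 to 46.1 FPKM. Skeletal muscle markers, from the muscle sheet under the skin, summed to 306 to 1300 FPKM in controls and 649 to 1420 FPKM in mutants, with a median difference of 0.38. Of 4 cartilage markers, Col2a1 and Matn1 were at or near 0, at most 0.0641 FPKM, and Comp was at 0.248 to 0.581 FPKM. The other, Acan, was at 2.07, 1.14 and 2.17 FPKM in controls and 2.95, 2.68 and 2.49 FPKM in mutants, with no overlap (log2 difference 0.43, limma adjusted p = 0.353). The 6 leukocyte markers had a median of 1.0 and 1 gene called, Ptprc (limma adjusted p = 0.0442), where 0.143% of all genes were called higher. The summed leukocyte level was at most 35.7 FPKM in controls and from 52.1 to 90.8 FPKM in mutants. Against the control mean, the leukocyte median was 0.05, -0.27 and 0.32 for controls 1 to 3 and 1.31, 0.87 and 0.76 for mutants 1 to 3. The 5 adipocyte markers had a median of 0.85, with 4 above 0, where 71.3% of all genes were. The exception was Fabp4, at -0.03. Summed adipocyte levels were 326 to 349 FPKM in controls and 256 to 495 FPKM in mutants. By library, the adipocyte median was 0.38, -0.32 and -0.02 for controls 1 to 3 and 1.22, 0.71 and 0.52 for mutants 1 to 3. The 7 keratinocyte and hair follicle markers had a median of 0.08, with summed levels of 4670 to 4960 FPKM in controls and 3140 to 5670 FPKM in mutants. By library, the keratinocyte and hair follicle median stayed between -0.22 and 0.27. All mutants lay above all controls in 5 of 6 leukocyte, 2 of 5 adipocyte and 2 of 6 endothelial markers, against 13.0% of all genes. They did so in none of the skeletal muscle or the keratinocyte and hair follicle markers. The part of these cell types was not tested.

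Ratios between genes of like role do not depend on how a library is scaled, apart from the added 1. In this set of 5 ratios, Mfap5 to Mfap4 alone had groups that did not overlap: its log2 ratio was -1.92, -1.66 and -1.92 for controls 1 to 3 and -2.12, -2.20 and -2.41 for mutants 1 to 3. Mfap4 was thus 3.41 to 3.98 times the FPKM of Mfap5 in controls and 4.45 to 5.54 times in mutants. The change of -0.41 had p = 0.1 in the exact two-sided permutation test, the smallest that 3 against 3 libraries can give, and 0.333 adjusted over the 5 ratios. Efemp2 to Efemp1 had a change of -0.38 (exact permutation p = 0.2), with control 3 the highest at -1.37. Without control 3 the change was -0.19 and without control 2 it was -0.54.

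Fbn2 to Fbn1, the fetal against the postnatal fibrillin, was at -3.43 ± 0.05 in controls and -3.59 ± 0.17 in mutants (log2, SD, n = 3 each, exact permutation p = 0.2). In plain FPKM, Fbn1 was 12.6 to 15.4 times Fbn2 in controls and 12.3 to 15.2 times in mutants. Eln to Fbn1 was at -0.54 ± 0.15 and -0.55 ± 0.27 (n = 3 each, exact permutation p = 0.8), and Fbln5 to Fbln1 at -0.60 ± 0.10 and -0.64 ± 0.13 (n = 3 each, exact permutation p = 0.7). As a share of the 10-gene sum, Efemp2 took 2.50% to 3.16% in controls and 2.15% to 2.25% in mutants. The other shares overlapped between the groups, Eln with 14.4% to 17.1% in controls and 15.1% to 17.0% in mutants.

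**Figure D4:**
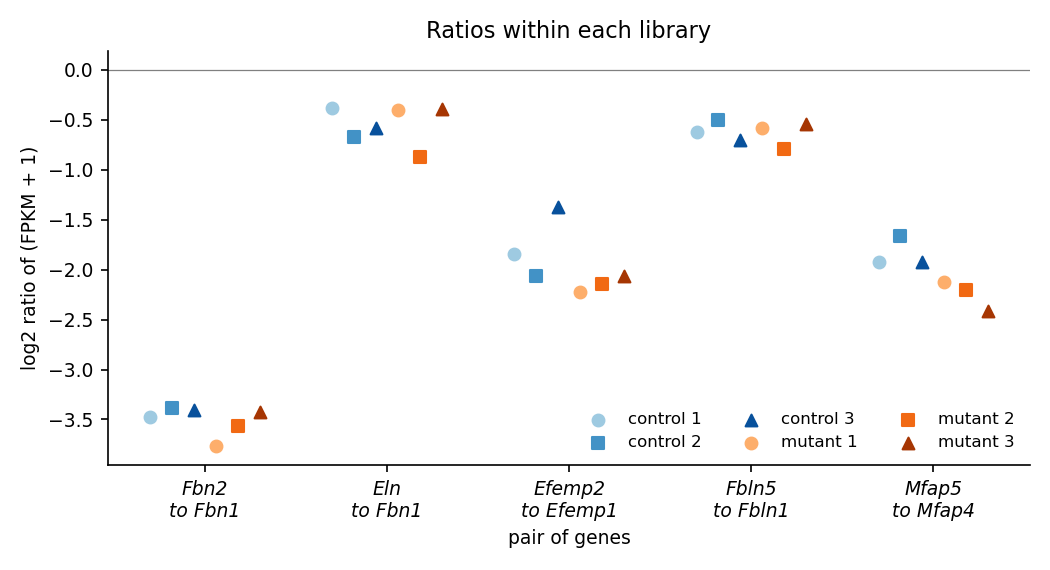
Log2 ratio of (FPKM + 1) for 5 pairs of elastic fibre genes in each of the 6 libraries. For Mfap5 to Mfap4 the 3 mutants lie between -2.41 and -2.12, below the 3 controls, while Eln to Fbn1 and Fbln5 to Fbln1 overlap between the groups.

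The genes that build, cross-link and break down elastic fibres were taken as a partner list of 46, of which 45 were found and 41 tested. Of the 41, 36 were above 0, where 71.3% of all genes were, with a median of 0.44. In 22 all mutants lay above all controls, against 13.0% of all genes. With limma 0 were called in either direction, where 0.143% of all genes were called higher. At an unadjusted limma p under 0.05 there were 23 higher, against 10.5% of all genes, and 0 lower, against 0.748%. Only Ctss was called by limma-voom on recovered reads, in a fit that called 67 genes higher over the whole table. By role, the medians ran from 0.13 for 6 ADAMTS and ADAMTSL genes to 0.83 for 5 cross-linkers.

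Lysyl oxidases oxidise lysines of elastin and collagen so that they cross-link. All 5 were above 0, where 71.3% of all genes were. In 4 of 5 all mutants lay above all controls, against 13.0% of all genes. Loxl1, the family member tied most to elastin, was at 7.37, 4.16 and 10.4 FPKM in controls and 17.5, 12.0 and 10.6 FPKM in mutants (log2 difference 0.83, limma adjusted p = 0.283). Mutant 3 was barely above control 3. Loxl2 had 13.0, 7.57 and 14.3 FPKM in controls and 29.9, 20.9 and 20.5 FPKM in mutants (0.99, limma adjusted p = 0.135). Loxl4 had 2.20, 1.28 and 2.71 FPKM and 5.0, 4.47 and 3.41 FPKM (0.81, limma adjusted p = 0.134). Lox itself, named after its values were seen, was at 15.3, 9.32 and 31.2 FPKM in controls and 39.2, 31.4 and 31.1 FPKM in mutants, so mutant 3 lay just below control 3.

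The latent TGF-beta binding proteins and other fibre glycoproteins were mixed, with 7 of 9 above 0, where 71.3% of all genes were, and a median of 0.40. Emilin1, for a glycoprotein at the elastin and microfibril interface, was at 3.63, 2.69 and 4.73 FPKM in controls and 8.70, 6.52 and 5.94 FPKM in mutants (log2 difference 0.79, limma adjusted p = 0.131). Mfap2, for MAGP-1, the relative of Mfap5, was at 10.7, 4.37 and 14.2 FPKM and 24.9, 16.2 and 16.3 FPKM (1.0, limma adjusted p = 0.287). Hmcn1, for the fibulin relative hemicentin-1, was at 7.64, 6.77 and 6.59 FPKM and 11.1, 9.39 and 9.83 FPKM (0.47, limma adjusted p = 0.181). In 5 of the 9, these 3 among them, all mutants lay above all controls, against 13.0% of all genes. Ltbp3, Ltbp4 and Fbln7, picked after their values were seen, had differences of -0.13, 0.04 and -0.05, so not every gene of the microfibril stood higher.

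Of the 6 ADAMTS and ADAMTSL genes, whose proteins bind or process fibrillins, only Adamtsl2 had separate groups. That is 16.7% of them, near the 13.0% of all genes with all mutants above all controls. It was at 0.997, 0.642 and 1.86 FPKM in controls and 3.69, 2.57 and 2.22 FPKM in mutants (log2 difference 0.84, limma adjusted p = 0.162). Adamts10 and Adamts17 had differences of 0.18 and 0.20 with overlapping groups. Among 8 integrins and proteoglycans the median was 0.42, and in 4 all mutants lay above all controls, against 13.0% of all genes. The integrin genes, named after their values were seen, had the lower differences. Itgb3 was at 0.44, Itgb5 at 0.41, Itga8 at 0.20, Itgav at 0.13 and Itgb6 at 0.08. Of these integrin genes only Itgb3 had separate groups. Dcn, for the small proteoglycan decorin, had a difference of 1.21 (limma adjusted p = 0.185), Bgn, for biglycan, of 0.77 (limma adjusted p = 0.185) and Vcan, for versican, which binds fibrillin and fibulins, of 0.70 (limma adjusted p = 0.143). Dcn is also in the fibroblast list.

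Genes that can degrade elastin were measured beside these. Ctss, for cathepsin S, an elastase of antigen-presenting cells, was at 14.2, 9.80 and 12.6 FPKM in controls and 42.6, 22.4 and 25.7 FPKM in mutants (log2 difference 1.20, limma adjusted p = 0.0883). Ctsk, for cathepsin K, had a difference of 1.22 (limma adjusted p = 0.114) and Mmp2, for gelatinase A, of 1.01 (limma adjusted p = 0.14), both with separate groups. Ctsl and Timp1 to Timp3 were picked after their values were seen. Ctsl, for cathepsin L, was at 70.7, 69.4 and 69.9 FPKM in controls and 132, 62.9 and 64.1 FPKM in mutants. Its log2 difference was 0.21 (limma adjusted p = 0.871). The inhibitor genes Timp1, Timp2 and Timp3 had differences of 0.69, 0.61 and 0.08. The leukocyte elastase gene Elane, picked like Mmp12 after its values were seen, was at most 0.128 FPKM in any library. The macrophage elastase gene Mmp12, under the level for testing, was at 0.0556 to 0.212 FPKM in controls and 0.73 to 0.978 FPKM in mutants.

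**Figure D5:**
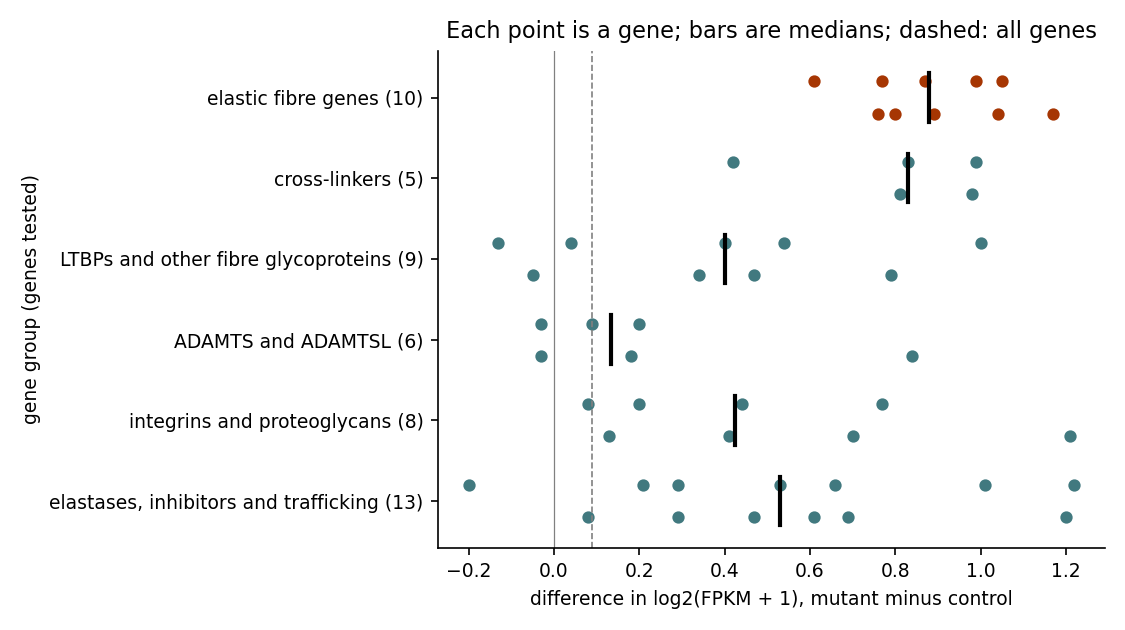
Difference in log2(FPKM + 1), mutant minus control, of the 10 elastic fibre genes and of 41 tested partner genes by role, 1 point per gene, with the median of each group as a bar. The medians are 0.88 for elastic fibre genes, 0.83 for cross-linkers and 0.13 for ADAMTS and ADAMTSL genes, and the dashed line is the 0.09 of all tested genes.

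Profiles over the 6 libraries were compared by the root mean square difference of log2(FPKM + 1) after each gene was centred on its own mean. On this scale 0 is the same profile. The added 1 understates the change of low genes, so a small distance need not be a like fold change. Among the 10 genes, Fbln1 and Fbln5 were nearest to each other (0.10), Eln and Mfap4 likewise (0.12) and Fbn1 and Fbn2 likewise (0.13). The 4 microfibril genes Fbn1, Fbn2, Mfap4 and Mfap5 did not form a set: Mfap4 was the farthest of the 10 from Fbn2 (0.32). Mfap5 had Eln as its nearest member (0.19) and Fbn2 as its farthest (0.29). Outside the set, the genes nearest to Fbn1 were Olfml3 (0.06) and Aebp1 (0.07), and those nearest to Fbn2 were Tnxb (0.06) and Gpr153 (0.07). Eln was nearest to Alox5ap (0.05) and Serpinf1 (0.06), and Mfap4 to Fcrls (0.12) and Alox5ap (0.12). Mfap5 was nearest to Cd209b (0.09) and Folr2 (0.10).

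Fbln1 was nearest to Clec4a1 (0.04) and B3gnt9 (0.06), Fbln2 to Thbs3 and Nckap1l (0.06 each) and Fbln5 to Rac2 and Tmsb4x (0.05 each). Efemp1 was nearest to Psmb8 and Cd53 (0.06 each) and Efemp2 to Rpph1 (0.06) and Gstm2 (0.07). For comparison, the median tested gene stood 0.37 from Fbln5 and 0.66 from Mfap4. With 6 points and 2 libraries at the ends of every profile, many genes come close: 248 outside genes were nearer to Efemp2 than Mfap5, its nearest member of the set, and 8 were nearer to Eln than Mfap4.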

How the data were processed

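The authors deposited 1 FPKM value per gene and library. Per the submitters' processing notes, GSNAP, HTSeq and mm10 were used; versions, gene lengths and further settings are not known here. Libraries were made with a stranded total RNA kit from dermis freed of epidermis by trypsin, per the labels' protocols.

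FPKM values are whole multiples of a gene-specific step, which gave the reads behind 23412 of 23412 genes (relative tolerance 3e-09); 1820 are at 0 and 1448 are seen in 1 library, where nothing could be checked. The 12560 genes whose mean reached 1 FPKM were compared as log2(FPKM + 1) with limma 3.58.1 in R 4.3.3 (intensity trend, prior of 5.44 degrees of freedom, two-sided, Benjamini-Hochberg, threshold 0.05), without covariates. Same-group libraries were not repeats of 1 library (chi-square over its degrees of freedom 15.7 to 79.8). Gene positions are from GENCODE M21. Whether counting used strand is not given in the sources used here; by that annotation exons of Mfap4 share 89 bases with antisense Mapk7, and those of Efemp2 173 with Mus81.

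Named genes were all 10 members, partner genes that were called or had the 3 smallest p in each of 5 role groups, and the 2 outside genes of nearest profile to each member. The members and lists were chosen with earlier results of these data known. Alternatives changed the pseudocount, filter, scaling, trend, block, covariate, model and libraries.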

Additional observations from a re-analysis of the deposited data

How the results depend on the processing

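All 10 elastic fibre genes kept a difference above 0 under each of the 17 alternatives, and their median ran from 0.53, without control 2 and mutant 1 (chosen after seeing the data), to 0.99, without control 3. Leaving out 1 library gave medians from 0.67 to 0.99. Calls were less steady. Members called numbered 2 with the replicate block and from 0 to 1 with 1 library left out; the 2 were Fbln5 (adjusted p = 0.0413) and Efemp1 (adjusted p = 0.0476) with limma, in a fit that called 0.533% of all genes higher, and the 1 was Fbn2, without control 3. Labels do not tie the replicate numbers, and same-numbered libraries did not deviate together (r of 0.0, 0.04 and -0.08 across genes), so the block is a number only. Partner genes called numbered 1 (Ctss) with limma-voom on recovered reads, with quantile normalization and with the replicate block. With 1 library left out they numbered from 0 to 7, the 7 being without control 3. There 189 genes were called higher in the whole table, against 18 with all libraries. Without control 3 the controls left are all female libraries and no mutant library is, so library sex and group cannot be told apart in that fit.

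Genes called higher in the whole table numbered 67 with limma-voom on recovered reads, 67 with the replicate block, 32 with quantile normalization, 28 with median-of-ratios scaling, 10 with library sex as a covariate, 10 without intensity trend, 9 with pseudocount 0.1, 9 without control 2 and mutant 1 and 4 with no filter on low FPKM, against 18. With 1 library left out they numbered 3, without mutant 2, to 189, without control 3. Genes called lower numbered 1 with the replicate block, with library sex as a covariate and without control 2 and mutant 1, against 0, and 0 to 4 with 1 library left out. With 2 libraries left in a group, limma's pooled variance carries the test.

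Small ratio changes turned sign. Eln to Fbn1 ran from -0.09 without mutant 1 to 0.15 without mutant 2 and was 0.07 without control 1, against -0.01. Fbln5 to Fbln1 was at 0.01 with pseudocount 0.1, and from -0.08 without control 3 to 0.04 without mutant 2 and 0.02 without control 2, against -0.03. Fbn2 to Fbn1 was at 0.01 with pseudocount 0.1, against -0.16, so its change follows the added 1. Efemp2 to Efemp1 ran from -0.54 without control 2 to -0.19 without control 3, against -0.38. Mfap5 to Mfap4 stayed below 0 under all 7 alternatives, from -0.47 to -0.32. For the other changes the cause was not tested. Depth limits mainly Efemp2 and Mfap5, with under 100 reads in control 2.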
